A study of Mus musculus with 22 samples.

Results

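Imprinted genes are expressed mainly from the copy inherited from 1 parent, and 10 protein-coding genes of this kind were followed in single mouse retinal neurons: Plagl1, Grb10, Nnat, Nap1l5, Peg3, Ndn, Dlk1, Mest, Sgce and Impact. They were taken from a named list of imprinted genes, not by a threshold, and are 10 of the 18194 genes that the arrays measured. The list was drawn up with earlier results of these cells known, so stage and spread between cells are described here without a test. The tests between cell types used the same list, and this limits them too. Each cell was picked from a papain-dissociated retina, cDNA was primed on its RNA with oligo dT and amplified over 35 PCR cycles, and each cell was hybridised to an Affymetrix mouse array of its own. Cells were assigned to a type only after profiling. The 22 cells were 2 photoreceptors of P0 (the day of birth) and 1 adult rod, 13 ganglion cells (4 of P0 and, by embryonic day, 3 at E12.5, 1 at E13.5, 2 at E14.5 and 3 at E15.5) and 6 amacrine cells (1 of E16.5 and 5 of P0). Ganglion cells send the output of the retina to the brain, amacrine cells are mostly inhibitory interneurons, and photoreceptors detect light. No transgene, deletion or treatment was labelled for any group, and the strain, CD1, was labelled for 9 of the cells. No animal or litter was named, so cells of 1 type and stage may share an animal.

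In imprinting, the copy from the other parent is silenced by DNA methylation laid down in the germ line at control regions that serve whole clusters of genes. Many imprinted genes act on growth, and several are expressed in neurons: in mouse, Grb10 is transcribed from the maternal copy in most tissues and from the paternal copy in neurons. The arrays do not tell the parental copies apart, and signal primed from the poly(A) end does not tell the start sites of a gene apart.

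Values are log2 of the array signal, after every array was brought to a trimmed mean of 500 and signals under 200 were set to 200, the floor (log2 7.64). A gene counted as detected in a cell at a signal of 1000 or more (log2 9.97). A cell under that level is not thereby shown to lack the transcript. The cells held between 1518 and 4352 detected genes, fewest in ganglion cell C7 of E15.5 and most in ganglion cell F1 of P0. The adult rod and amacrine cell J6 of E16.5 stood apart in background, with 55.0% and 57.9% of genes above the floor, and differences that they moved by over 1.5 times are also given without them. Because types were assigned after profiling, markers are no independent check of the labels. Photoreceptor markers matched the labels, with 7 to 9 of 9 detected in photoreceptors, against 0 to 1 in ganglion cells and 0 in amacrine cells. Ganglion cell markers were detected at 1 of 11 in photoreceptors, against 7 to 10 in ganglion cells and 0 to 4 in amacrine cells. Amacrine markers were detected at 1 to 3 of 10 in photoreceptors and 0 to 1 in ganglion cells, against 3 to 5 in amacrine cells.

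The methylation of imprinted genes lies at CpG sites, and these are marked below in the promoters of the members that follow stage or type. No methylation was measured, and whether these windows lie in imprinting control regions was not tested. Each run covers 250 bases before to 50 after an annotated start, 5′ to 3′ on the strand of the gene, from RefSeq on GRCm38.p6, with each CpG in capitals. RefSeq gave Grb10 a pair of starts on the minus strand, at chr11:12037371-12037670 (the upstream start) and chr11:12027922-12028221 (the downstream start). Nap1l5 starts at chr6:58907077-58907376 on the minus strand and Nnat at chr2:157559828-157560127 on the plus strand.
Grb10 upstream start: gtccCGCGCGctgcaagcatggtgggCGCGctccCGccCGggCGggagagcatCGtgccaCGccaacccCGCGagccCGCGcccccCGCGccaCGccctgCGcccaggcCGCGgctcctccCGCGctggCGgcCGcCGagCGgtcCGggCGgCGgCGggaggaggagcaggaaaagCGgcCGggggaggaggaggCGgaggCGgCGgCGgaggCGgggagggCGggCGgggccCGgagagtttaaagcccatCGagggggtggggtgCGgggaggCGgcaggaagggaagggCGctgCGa
Grb10 downstream start: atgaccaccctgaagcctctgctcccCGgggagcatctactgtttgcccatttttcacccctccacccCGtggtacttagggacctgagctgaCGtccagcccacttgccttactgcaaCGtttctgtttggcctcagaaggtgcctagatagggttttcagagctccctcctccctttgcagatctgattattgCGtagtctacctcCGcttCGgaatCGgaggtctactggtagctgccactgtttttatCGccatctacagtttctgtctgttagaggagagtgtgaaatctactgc
Nap1l5: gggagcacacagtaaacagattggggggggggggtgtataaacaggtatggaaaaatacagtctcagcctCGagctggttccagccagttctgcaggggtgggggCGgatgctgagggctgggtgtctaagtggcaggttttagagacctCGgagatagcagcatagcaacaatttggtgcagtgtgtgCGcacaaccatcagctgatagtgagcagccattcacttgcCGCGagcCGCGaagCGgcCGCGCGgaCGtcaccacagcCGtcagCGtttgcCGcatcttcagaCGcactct
Nnat: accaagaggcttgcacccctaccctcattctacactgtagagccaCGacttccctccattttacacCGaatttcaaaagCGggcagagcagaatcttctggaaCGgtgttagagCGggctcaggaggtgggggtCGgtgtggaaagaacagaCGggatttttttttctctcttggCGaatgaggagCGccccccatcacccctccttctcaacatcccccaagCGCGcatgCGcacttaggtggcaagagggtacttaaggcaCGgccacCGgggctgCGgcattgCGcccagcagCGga
The upstream Grb10 window held 45 CpG sites, more than 98.1% of the 32851 promoter windows of this length, whereas the downstream Grb10 window held 9. The Nap1l5 and Nnat windows held 17 each. In all, 11 windows of 8 of the 10 members were compared. No window of Impact or Sgce was included, so their CpG sites were not counted. Each of the 11 windows held more CpG sites (8 to 45) than the median of 7 over all windows. The windows are not all distinct: those of Mest at chr6:30737800-30738099 and chr6:30737803-30738102 overlapped almost fully. The lowest count, 8 in another Mest window, was above only 51.35% of all windows. The letters GGGGCCCC, the core of the site that Plagl1 is known to bind, read alike on both strands and were found in 1 of the 11 windows, that of Peg3, against 1.08% of all windows. A match of letters does not show binding.

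The plot of all members by cell shows how many were detected in each. A cell detected a median of 5 of the 10 members, ranging between 0 in the adult rod and 8 in amacrine cell B1 of P0. Nnat was detected in 19 of the 22 cells, Ndn in 18, Grb10 in 13, Nap1l5 and Impact in 12 each, and Plagl1, Mest and Peg3 in 8 each. Sgce was detected in 1 cell and Dlk1 in none. The first 8 of these genes were among the 7184 that were detected in at least 3 cells and entered the tests, and Sgce and Dlk1 were not tested.

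**Figure D1:**
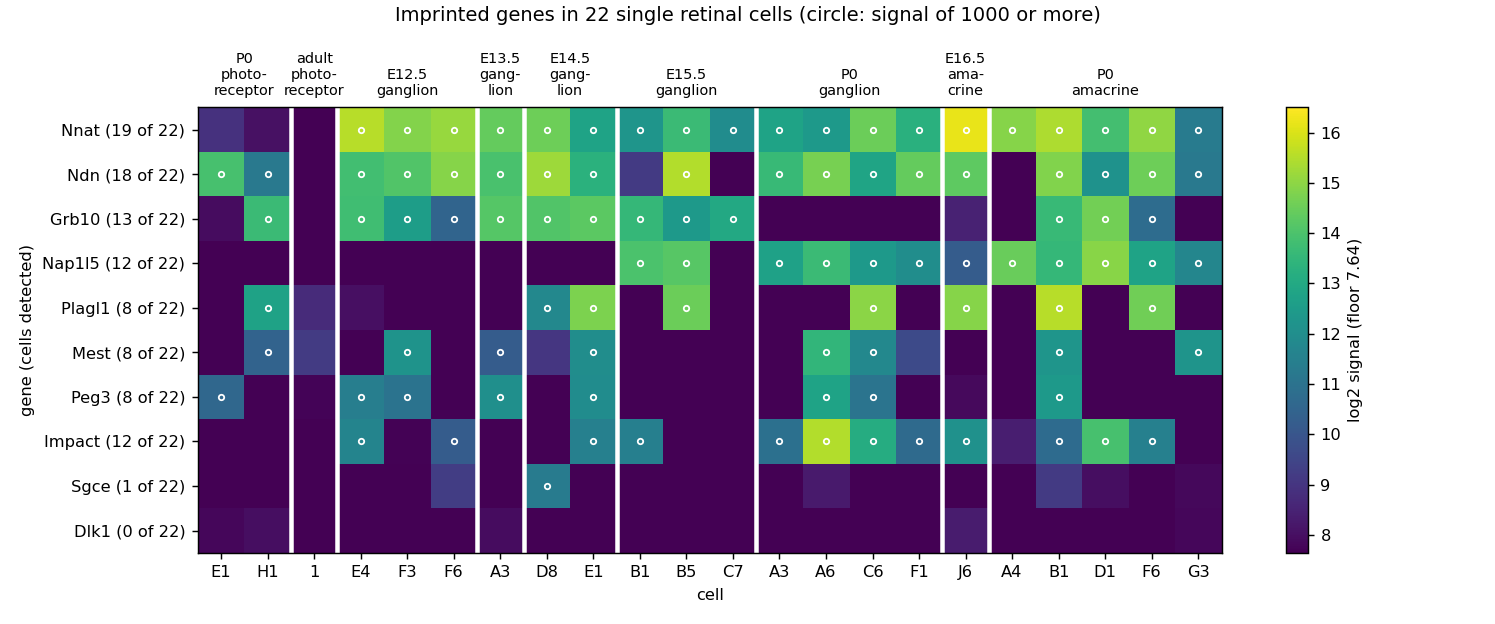
Log2 signal of the 10 members (rows, with the number of detecting cells) in the 22 single cells (columns, named below and grouped by stage and type above), with a circle where the signal is 1000 or more. Colours compare cells within a row, not genes with each other: the Grb10 row is at the floor in all 4 P0 ganglion cells, and the Nap1l5 row is at the floor in all 6 ganglion cells of E12.5 to E14.5.

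Nnat was the only member that differed between photoreceptors and the other neurons in the test. This difference was among the results known when the members were chosen, so the test is no independent support. Nnat encodes neuronatin, a small proteolipid of the endoplasmic reticulum that is abundant in the developing brain, and its gene lies in an intron of Blcap. Nnat was at 8.92 and 8.03 in P0 photoreceptors and at the floor in the adult rod. In ganglion cells it was at 15.53, 14.84 and 15.14 at E12.5, 14.39 at E13.5, 14.55 and 12.79 at E14.5, 12.28, 13.68 and 11.94 at E15.5, and 12.77, 12.42, 14.50 and 13.28 at P0. In amacrine cells it was at 16.21 at E16.5 and at 14.90, 15.41, 13.84, 15.03 and 11.32 at P0. All 3 photoreceptors thus lay under the detection level, and all 19 other cells lay above it with no overlap. Cells of a type and stage were averaged to 9 samples, and photoreceptors (2 samples) were set against the other neurons, with equal weight for ganglion (5 samples) and amacrine (2 samples) cells. Nnat was lower in photoreceptors by a log2 difference of -6.43 ± 1.33 (SE), at an adjusted p of 0.000415 (limma, Benjamini-Hochberg over 7184 genes). This was the third most negative difference of all tested genes. The SE and p-value used a spread pooled over genes of like mean level. With gene-wise variances in the same linear model the adjusted p of Nnat was 0.0411. Without the adult rod and amacrine cell J6 the difference was -5.49, at an adjusted p of 0.0323 in limma. Because the rod was at the floor, the size depends on the floor: it was -6.93 with a floor of 100 and -5.78 with a floor of 400.

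Over the 8 tested members, 1 passed the test as lower in photoreceptors and 0 as higher, where 0.612% and 1.5% of all tested genes did so. The difference was negative for 7 of the 8, with a median of -2.29 over the members and of -0.57 over all tested genes. These figures include the adult rod and amacrine cell J6. Without both, Nnat was at -5.49, Nap1l5 at -3.86 and Impact at -2.43, and the other tested members lay between -0.75 and 0.076. The share of negative differences over all tested genes is not given here. At an unadjusted p under 0.05, 4 of the 8 members were counted (Nnat, Ndn, Nap1l5 and Impact), where 12.2% of tested genes were. Ndn encodes necdin, a protein of the MAGE family that promotes the exit of neurons from the cell cycle. It was detected in both P0 photoreceptors, at 13.92 and 11.21, and was at the floor in the adult rod, and its difference of -3.20 ± 1.35 did not pass (limma adjusted p = 0.255). The size of this difference rests on the adult rod: it was -0.74 without the rod and -0.19 without the rod and amacrine cell J6. Nap1l5 encodes a protein of the nucleosome assembly family and is a gene without introns that lies within Herc3. It was at the floor in all 3 photoreceptors, yet its difference of -3.04 ± 1.35 did not pass (limma adjusted p = 0.304), and 7 of the 13 ganglion cells were at the floor too. Impact, an inhibitor of the GCN2 kinase that senses amino acid shortage, was likewise at the floor in all 3 photoreceptors, and its difference was -2.85 ± 1.35 (limma adjusted p = 0.349). Grb10 (-1.74), Plagl1 (-1.71), Peg3 (-0.63) and Mest (0.02) differed by less, at limma adjusted p of 0.620 to 0.999. Without the rod and J6 these 4 differences were -0.75, 0.076, -0.11 and -0.50 in the same order.

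**Figure D2:**
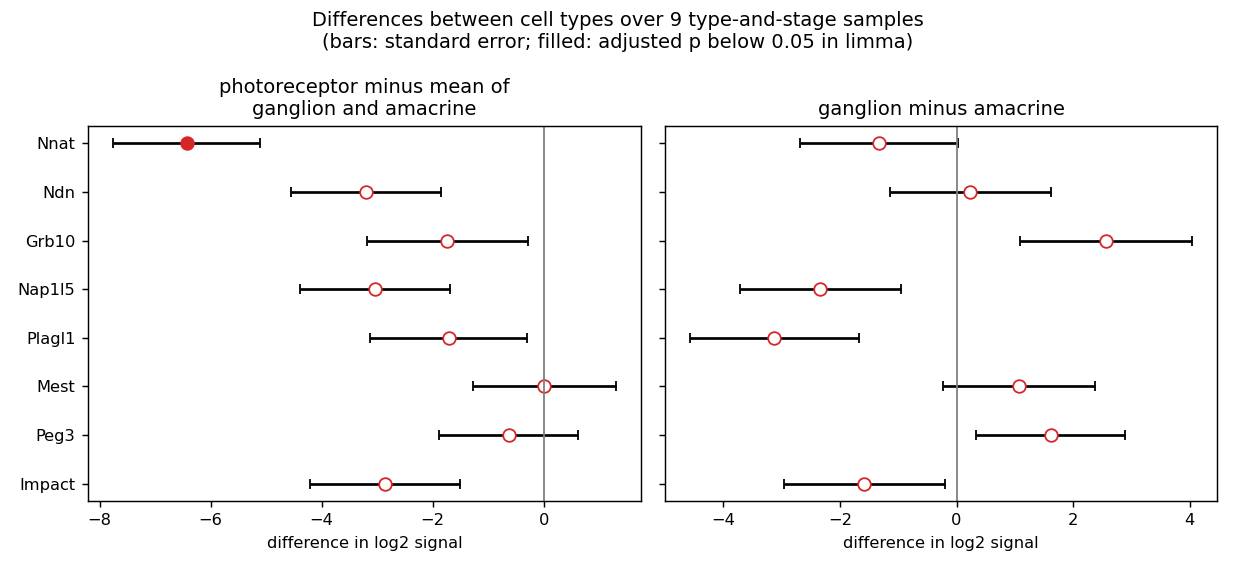
Difference in log2 signal (x axis) of the 8 tested members (rows) for photoreceptors minus the mean of ganglion and amacrine cells (left) and ganglion minus amacrine cells (right), over 9 type-and-stage samples. Points are the limma estimates and bars are standard errors. Nnat on the left, at -6.43, is the only filled point, which marks an adjusted p below 0.05.

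At P0, where all 3 types were sampled, the 2 photoreceptors lay below all 9 other cells for Nnat and Nap1l5, where 1.18% of tested genes did so. Nnat averaged 8.48 ± 0.63 in photoreceptors (SD, n = 2 cells), against 13.72 ± 1.37 in the other P0 cells (SD, n = 9). Nap1l5 was at the floor in both photoreceptors, against a mean of 13.14 ± 1.09 in the other P0 cells (SD, n = 9). Ndn, Grb10, Plagl1, Mest, Peg3 and Impact overlapped between these groups. Grb10 was at 7.94 and 13.67 in the 2 photoreceptors and Plagl1 at 7.64 and 12.74, with the higher value in photoreceptor H1 for both. Photoreceptor E1 detected Peg3 (10.59) and photoreceptor H1 did not, whereas H1 detected Mest (10.47) and E1 did not.

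**Figure D3:**
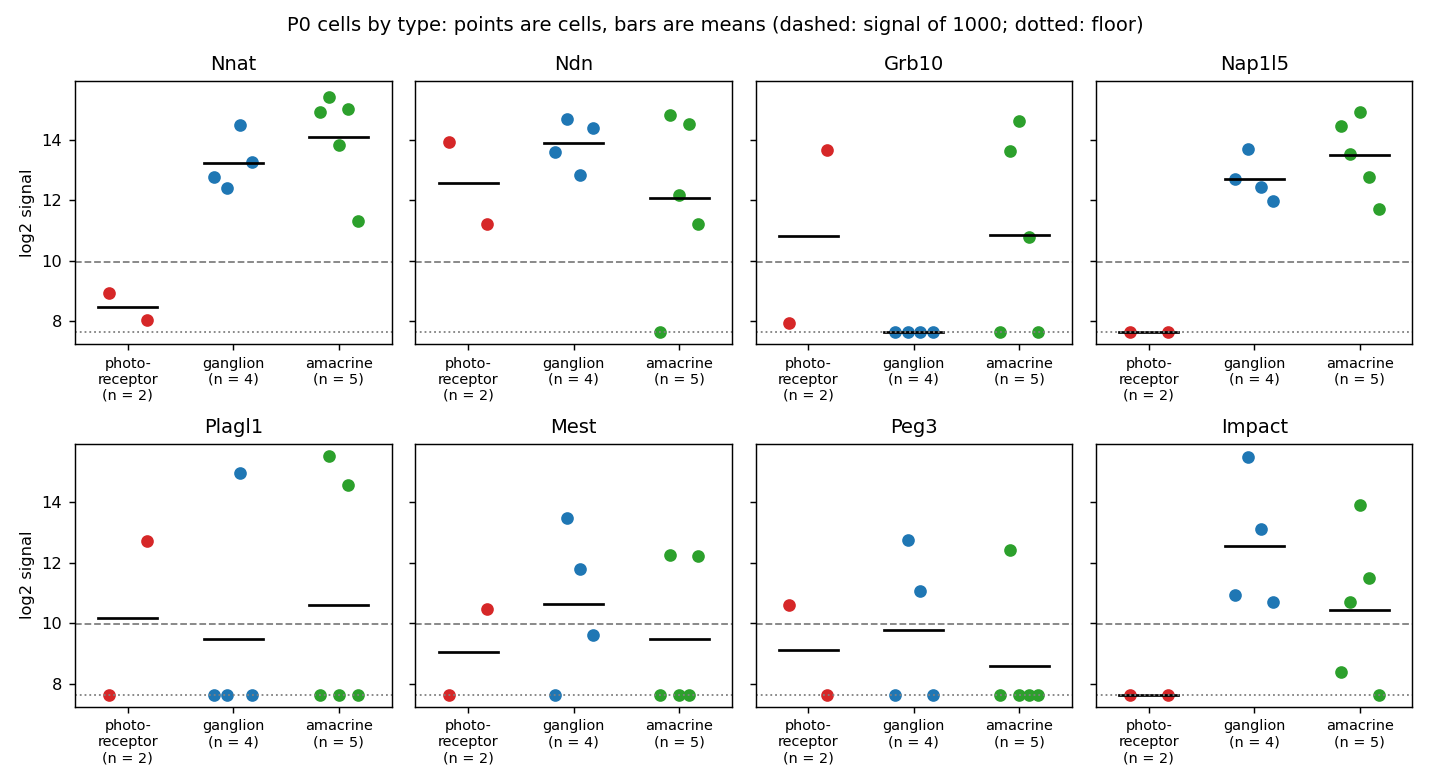
Log2 signal (y axis) of the 8 tested members in P0 photoreceptors, ganglion cells and amacrine cells (x axis), with 1 point per cell, a bar at the mean, a dashed line at a signal of 1000 and a dotted line at the floor. Nnat and Nap1l5 are below the dashed line in both photoreceptors and above it in all 9 other cells, while Plagl1 has cells at the floor and cells above 12.7 in each type.

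Between E12.5 and P0 ganglion cells, Grb10 and Nap1l5 differed in opposite directions. At the stages between they did not mirror each other, and the E15.5 cells B1 and B5 detected both. Grb10 encodes an adaptor that binds the insulin and IGF1 receptors and restrains their signalling. Grb10 was at 13.78, 12.57 and 10.48 at E12.5, 14.16 at E13.5, 14.08 and 14.26 at E14.5, 13.56, 12.42 and 12.98 at E15.5, and at the floor in all 4 cells of P0. It was detected in none of the 4 P0 ganglion cells, against all 9 embryonic ones. The mean was 7.64 at P0, against 12.28 ± 1.67 at E12.5 (SD, n = 3 cells) and 13.14 ± 1.21 over all embryonic ganglion cells (SD, n = 9). The difference between P0 and all embryonic ganglion cells, -5.50, was the most negative of the 7184 tested genes, and 0.264% of those genes were lower at P0 with no overlap. Its size depends on the floor, which sets the P0 value.

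Nap1l5 was at the floor in all 6 ganglion cells of E12.5, E13.5 and E14.5. It was at 13.98, 14.21 and 7.64 at E15.5 and at 12.71, 13.69, 12.44 and 11.97 at P0. The embryonic cells up to E14.5 therefore lay below every P0 cell, and the E15.5 cells were split, with 2 as high as P0 cells and 1 at the floor. P0 cells averaged 12.70 ± 0.73 (SD, n = 4), against the floor at E12.5. The difference of 5.06 was the fifth most positive of the tested genes. It was 6.06 with a floor of 100 and 4.06 with a floor of 400.

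Nnat also separated P0 and E12.5 ganglion cells. It averaged 13.24 ± 0.91 at P0 (SD, n = 4), against 15.17 ± 0.35 at E12.5 (SD, n = 3), a difference of -1.93 with no overlap. The lowest mean along the series was 12.63 ± 0.92 at E15.5 (SD, n = 3), so Nnat did not fall steadily with stage. Between P0 and E12.5 cells, 1 member was higher without overlap, where 2.59% of tested genes were, and 2 were lower, where 3.48% were. These counts carry no p-value, because 1 sample is set against 1 and the members were chosen with stage in view.

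Ndn, Impact, Mest, Peg3 and Plagl1 overlapped between P0 and E12.5 ganglion cells. Ndn averaged 13.88 ± 0.84 at P0 (SD, n = 4), against 14.28 ± 0.55 at E12.5 (SD, n = 3). It was at 13.83, 14.10 and 14.89 at E12.5, 13.97 at E13.5, 15.19 and 13.31 at E14.5, 9.14, 15.48 and 7.64 at E15.5, and 13.60, 14.70, 12.82 and 14.40 at P0. Only the E15.5 cells B1 and C7 were below the detection level among the ganglion cells. Impact was detected in all 4 P0 ganglion cells, with a mean of 12.57 ± 2.24 (SD, n = 4), against 4 of the 9 embryonic ones, with a mean of 9.23 ± 1.91 (SD, n = 9). In P0 ganglion cells its values were 10.93, 15.49, 13.13 and 10.71, and in embryonic ones they ran between 7.64 and 11.65 with a median of 7.68. The groups overlapped, since P0 cells A3 and F1 lay below the highest embryonic cells.

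**Figure D4:**
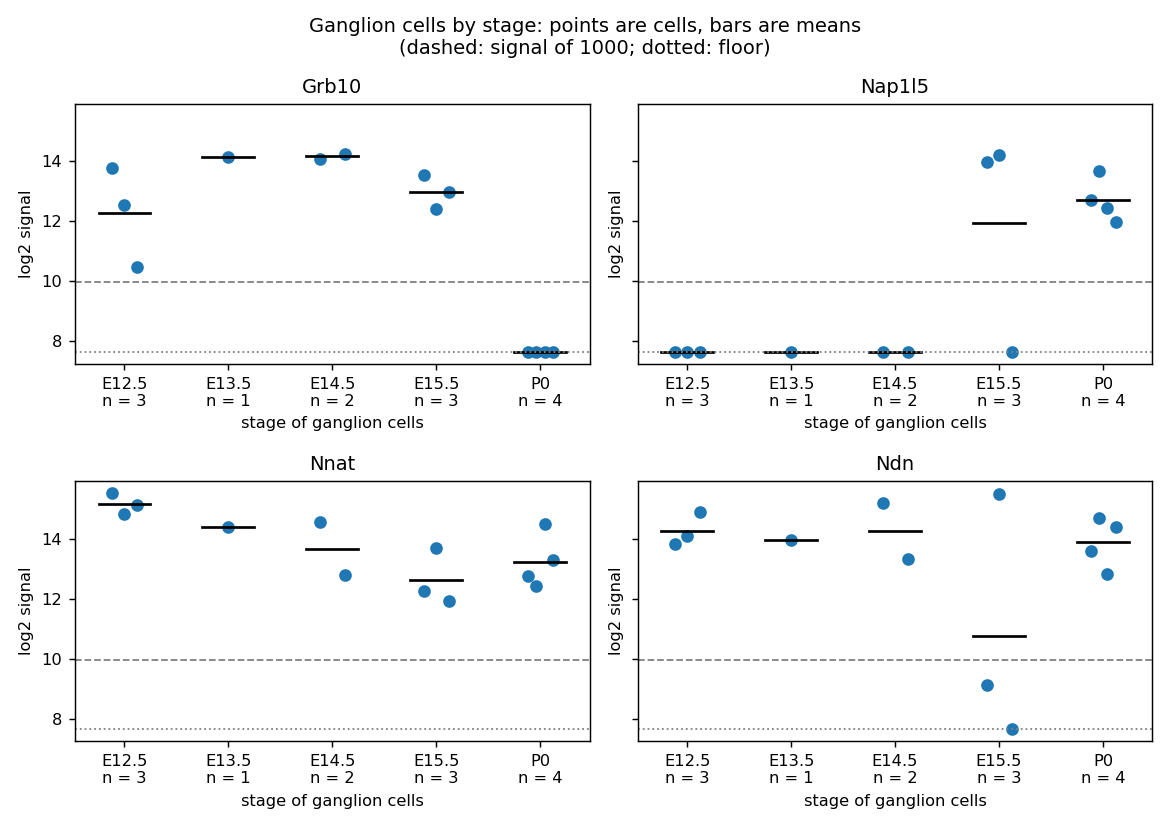
Log2 signal (y axis) of Grb10, Nap1l5, Nnat and Ndn in ganglion cells by stage (x axis, with the number of cells), with 1 point per cell, a bar at the mean, a dashed line at a signal of 1000 and a dotted line at the floor. Grb10 is above 10.4 in every embryonic cell and at the floor in all P0 cells, and Nap1l5 is at the floor until E14.5 and above 11.9 in all P0 cells.

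Other markers moved with stage in the same ganglion cells. Progenitor markers were detected at 0 to 2 of 9 in P0 cells, against 1 to 7 of 9 in embryonic cells, with mean log2 levels of 7.64 to 9.28 and of 8.28 to 12.52. The 2 cells of E14.5 carried the most, 4 and 7, and also detected 2 and 3 of 8 lens and pigment epithelium markers, of which P0 cells detected 0. The lens crystallin Cryaa was detected in 3 embryonic ganglion cells, while Tyr, Tyrp1 and Rpe65 were detected in no ganglion cell. Glial markers were detected at 0 to 2 of 8 in P0 cells, against 1 to 3 in embryonic cells. Vim was detected in 3 P0 and 9 embryonic ganglion cells, Glul in 1 and 6 and Clu in 0 and 2. Rlbp1, Slc1a3, Apoe, Gfap and Aqp4 were detected in no ganglion cell. Vascular, mesenchymal and blood markers were detected at 0 of 13 in P0 cells, against 0 to 2 in embryonic cells, with Pecam1 and the collagens in none and the embryonic globin Hbb-y in 5. Grb10 was detected and Nap1l5 was at the floor in the 3 cells of E12.5. These cells detected 0 of the lens, 0 of the vascular, 1 to 3 of the progenitor and 1 to 2 of the glial markers. The part of these other markers in the stage differences was not tested.

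Among P0 ganglion cells and among P0 amacrine cells, Plagl1 was the member with the largest spread. Plagl1, also called Zac1, is a zinc finger transcription factor that restrains growth and is known in mouse to regulate a set of other imprinted genes. Plagl1 was at the floor in P0 ganglion cells A3, A6 and F1 and at 14.97 in cell C6. In P0 amacrine cells it was at 15.55 in B1 and 14.59 in F6, and at the floor in A4, D1 and G3. Its cells therefore lay either at the floor or far above the detection level. These values are of 1 probe set, 1426208_x_at. Another, 1450533_a_at, was at the floor in ganglion cell C6 and at 9.79 and 10.42 in amacrine cells B1 and F6. The high value in C6 thus rests on 1 probe set. The SD between cells was 3.66 in P0 ganglion cells (n = 4) and 4.08 in P0 amacrine cells (n = 5), where the median SD of genes detected in at least 1 cell of the group was 1.90 and 2.17. In each group that SD was above 99.9% of those genes. The order differed before birth: in the 3 ganglion cells of E15.5 the SD of Ndn was 4.16 and that of Plagl1 was 3.95, and at E12.5 Plagl1 was detected in no cell. In embryonic ganglion cells Plagl1 was detected in 3 of 9, at 11.79 and 14.75 in both cells of E14.5 and at 14.49 in cell B5 of E15.5, and it was at 14.88 in amacrine cell J6.

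**Figure D5:**
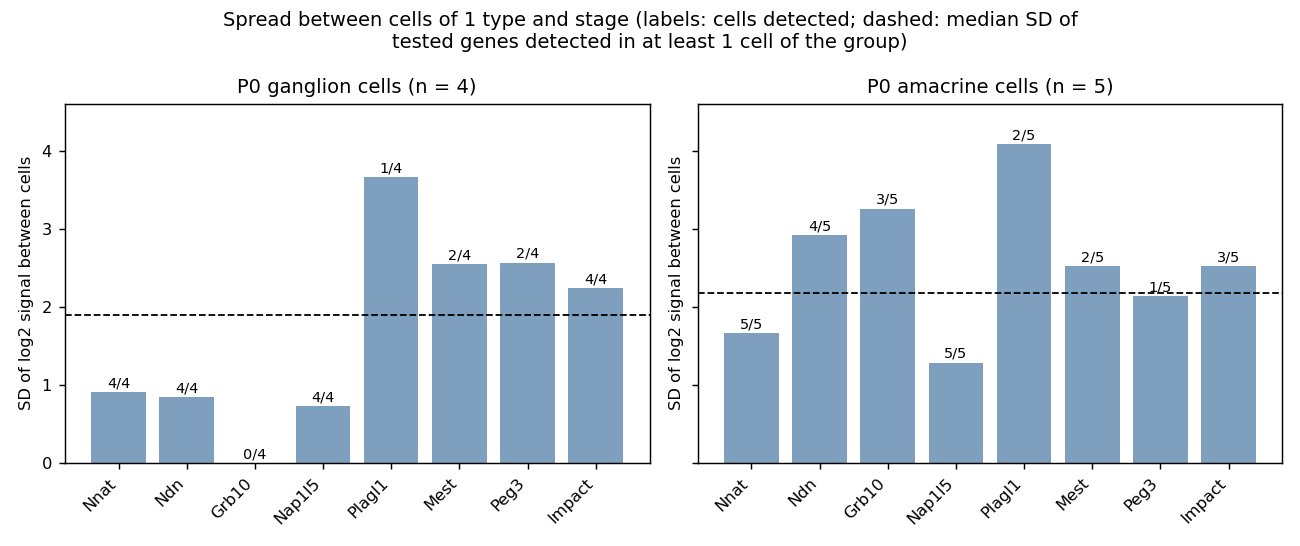
Standard deviation of log2 signal between cells (y axis) for the 8 tested members (x axis) in the 4 P0 ganglion cells (left) and 5 P0 amacrine cells (right), with the number of detecting cells above each bar. The dashed line is the median over tested genes detected in the group, 1.90 on the left and 2.17 on the right. Plagl1 is highest in both groups, and Nap1l5 and Nnat are below the line in both.

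Of the 10 members, 8 of which were tested, 4 were detected in every P0 ganglion cell (Nnat, Ndn, Nap1l5 and Impact), where 11.4% of tested genes were. Another 3 (Plagl1, Mest and Peg3) were detected in some P0 ganglion cells and not in others, where 69.8% of tested genes were. In P0 amacrine cells 2 members (Nnat and Nap1l5) were detected in every cell, where 5.54% of tested genes were, and 6 in some, where 74.3% were. The count of mixed members was thus under the background share in ganglion cells and near it in amacrine cells. Nap1l5 had a small spread in both groups, with an SD of 0.73 in P0 ganglion cells and 1.28 in P0 amacrine cells.

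Mest and Peg3 were each detected in 2 of the 4 P0 ganglion cells, and in the same 2, A6 and C6. Mest, an enzyme of the alpha/beta hydrolase fold found in mesoderm and in brain, was at 13.48 and 11.79 in these and at 7.64 and 9.63 in A3 and F1. Peg3, a large zinc finger protein that has been linked to maternal behaviour and to p53-dependent cell death in mouse, was at 12.78 and 11.06 in A6 and C6 and at the floor in A3 and F1. These Peg3 values are of 1 probe set, 1433924_at. Another, 1417356_at, was at 8.82 in A6, under the detection level, and at the floor in C6. Over all 22 cells Mest and Peg3 were detected together in 6 cells, each alone in 2 and neither in 12. Their log2 signals had a Pearson correlation of 0.63 across the 22 cells, the highest among the pairs of members. The cells differ in type, stage and number of genes detected, and the correlation is given as a description.

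In P0 amacrine cells Grb10 was split, at 13.61 in B1, 14.62 in D1 and 10.78 in F6, and at the floor in A4 and G3. Its SD of 3.26 (n = 5) was above 96.4% of the genes detected in that group. Ndn was at 7.64, 14.82, 12.17, 14.53 and 11.22 in A4, B1, D1, F6 and G3, with an SD of 2.91 (n = 5), against 0.84 in P0 ganglion cells (n = 4). Mest was at 12.27 in B1 and 12.22 in G3 and at the floor in the others, and Peg3 was above the floor in B1 alone (12.42). Impact was at 8.39, 10.72, 13.93, 11.52 and 7.64 in the same order. Amacrine cell B1 detected all 8 tested members and A4 detected 2, with 2484 and 1928 genes detected in these cells. Cell B1 is also the array that was rescaled, since its deposited values had a trimmed mean of 18.1. Without B1, Plagl1 was still split among the P0 amacrine cells, at 14.59 in F6 and at the floor in the other 3, and Peg3 was at the floor in the other 4.

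In the test of ganglion against amacrine cells, 0 of the 8 members passed, at a limma adjusted p of 0.999 for each, where 0.0696% of all tested genes passed. At an unadjusted p under 0.05, 1 member was counted, where 3.94% of tested genes were. That member was Plagl1, with type-and-stage means of 9.62 ± 2.28 in ganglion cells (SD, n = 5 samples), against 12.75 ± 3.01 in amacrine cells (SD, n = 2 samples), a difference of -3.13 ± 1.45 (SE). Grb10 differed by 2.57 ± 1.48, with means of 12.25 ± 2.70 in ganglion samples (SD, n = 5) and 9.68 ± 1.67 in amacrine samples (SD, n = 2). Nap1l5 differed by -2.33 ± 1.38, Peg3 by 1.62 ± 1.28 and Impact by -1.58 ± 1.37 (SE), and Nnat, Mest and Ndn by less. Several of these sizes rest on amacrine cell J6. Without it Plagl1 differed by -0.996, Grb10 by 1.39, Impact by -0.73, Nnat by -0.28, Mest by 0.15, Nap1l5 by -3.97 and Ndn by 1.35, and none passed. Between P0 cells alone the difference of Plagl1 was -1.14. Stage enters this comparison, since 4 of the 5 ganglion samples and 1 of the 2 amacrine samples were embryonic. Between the P0 cells of both types alone, Grb10 was at the floor in all 4 ganglion cells and averaged 10.86 ± 3.26 in amacrine cells (SD, n = 5), a difference of -3.22, opposite in sign to that over all stages. None of the members separated P0 ganglion from P0 amacrine cells without overlap, where 1.99% of tested genes did.

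Sgce and Dlk1 were scarcely measured here. Sgce, the epsilon subunit of the sarcoglycan complex at the cell membrane, reached 11.33 in ganglion cell D8 of E14.5, and the next highest values were 9.24 in ganglion cell F6 of E12.5 and 9.16 in amacrine cell B1 of P0. Dlk1, a membrane protein of the Notch ligand family without the usual receptor-binding domain, had its highest value, 8.32, in amacrine cell J6. Of its 2 probe sets, 1 was at the floor in all 22 cells. These values show that Dlk1 was not detectable at this signal level.

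The 10 members had 29 probe sets on the array, of which 15 reached the detection level in at least 1 cell and 14 in none. Ndn had 8, of which 5 detected it in 18 cells each. Grb10 had 3, of which only 1425458_a_at reached the detection level and carried every Grb10 value above. The other 2 stayed at or below 7.88 in every cell, so the Grb10 pattern rests on 1 probe set. Plagl1 had 3, and 1450533_a_at reached the detection level in 2 of the 8 cells that the main probe set detected. It was at the floor in ganglion cells C6 of P0 and B5 of E15.5, where the main probe set read 14.97 and 14.49. Peg3 had 5, of which 1417356_at detected 2 cells and 1433924_at detected 8. In amacrine cell B1 of P0, 1417356_at was at the floor, where 1433924_at read 12.42. Nnat, Nap1l5 and Mest had a single probe set each, and for them no other probe set could be compared.

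The genes whose log2 signal was most like that of each member across the 22 cells were listed by Pearson correlation, as a description. For Nnat they were Ina (0.83), a neurofilament protein, Gng3 (0.81), a neuronal G protein subunit, and Map2 (0.81), a microtubule protein of dendrites. For Grb10 they were Sox11 (0.74), a transcription factor of young neurons, Mapk8ip2 (0.72), a JNK scaffold, and Ccnd1 (0.70), the cell cycle protein cyclin D1. For Nap1l5 they were Macf1 (0.79) and Clasp2 (0.70), which both act on microtubules, and Prkar1a (0.68), a regulatory subunit of protein kinase A. For Plagl1 they were Smad5 (0.82), a BMP signal transducer, Psat1 (0.82), an enzyme of serine synthesis, and Sox2 (0.77), a transcription factor of progenitors. Sox2 was detected in 6 cells, and all 6 detected Plagl1. For Ndn the closest gene was Psma6 (0.87), a proteasome subunit, for Mest Nanp (0.81), for Peg3 Armc1 (0.77) and for Impact Hacd2 (0.74). These correlations share each array and its amplification, and they were the highest of 7184 genes searched for each member.

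Of 69 other imprinted genes, 56 were on the array with a single gene name, 21 of these were detected in no cell and 23 were tested. None of the 23 passed in either test, and 2 had an unadjusted p under 0.05 in the photoreceptor test and 0 in the ganglion against amacrine test. Their median difference in the photoreceptor test was -0.38, against -0.57 over all tested genes. The tested genes in the same imprinted domains as the members were detected unevenly. Beside Ndn, Snrpn was detected in 16 cells (1 photoreceptor, 9 ganglion and 6 amacrine), Ube3a in 11, Magel2 in 4 and Mkrn3 in 3. Beside Nnat, Blcap was detected in 14 cells, including 1 photoreceptor. Beside Dlk1, the noncoding Meg3 was detected in 13 cells (1 photoreceptor, 10 ganglion and 2 amacrine) and Rian in 3, all ganglion cells. Beside Nap1l5, Herc3 was detected in 3 cells, beside Mest, Copg2 in 5, and beside Sgce, Ppp1r9a in 7.

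Of 51 genes that act with the members, 45 were on the array and 30 were tested, and 0 passed in either direction in either test. The tested genes were 5 of 9 for insulin and IGF signalling (Grb10), 6 of 7 for the GCN2 pathway (Impact), 5 of 7 necdin partners (Ndn), 5 of 12 for the dystrophin complex (Sgce), 2 of 6 for Notch (Dlk1), 2 of 4 for Peg3, 2 of 2 for Nnat and 3 of 4 for Plagl1. The median difference in the photoreceptor test was -0.71 over these 30 genes, against -0.57 over all tested genes. For Grb10, the receptor Igf1r was detected in 9 cells and Insr in 4, and the adaptor Irs1 in 9 (4 ganglion and 5 amacrine). The ubiquitin ligase Nedd4, which binds Grb10, was detected in 20 cells and the kinase Akt1 in 13. For Impact, the kinase gene Eif2ak4 (GCN2) was detected in 5 cells, its transcription factor target Atf4 in 19 and asparagine synthetase, Asns, in 13. The ligand genes Igf1 and Igf2, of which Igf2 is itself imprinted, were detected in 1 ganglion cell each.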

How the data were processed

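The authors deposited 1 table of signal intensity for 45101 probe sets in 22 single cells, made with MAS5 per the labels' design text, on a linear scale; its version is not given in the sources used here. On 21 arrays the deposited intensity had a trimmed mean of 500 (2% cut at each end). The remaining array, P0 amacrine cell B1, was multiplied by 27.6. Gene names came from the platform annotation, updated through RefSeq: 34958 probe sets had 1 symbol (34754 matched), 932 several and 9211 none. The probe set with the highest mean stood for a gene.

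Log2 values of cells were averaged to 9 type-and-stage samples (5 ganglion, 2 amacrine, 2 photoreceptor), since no animal was named. P-values therefore measure only the spread between these samples. A mean per type was estimated in R 4.3.3 by lmFit and a trended eBayes (limma 3.58.1), with 6 residual degrees of freedom, over 7184 genes detected in at least 3 cells. The prior degrees of freedom were infinite in this fit. Its SE and p-values thus rest on a spread pooled over genes of like mean level, not on the gene's own spread. P-values were adjusted by Benjamini-Hochberg at 0.05. The fit was also run on simulated data, in which each gene's values were shuffled over the cells and known shifts were added. Shuffling each gene alone removes what genes of a cell share, so nothing is concluded from that run here. Precision is limited by the number of arrays. All 10 members were described; the 3 genes most like each by correlation, the imprinted neighbours and the 6 other imprinted genes detected in most cells were named by rule, and partners Igf1r, Insr, Irs1, Nedd4, Akt1, Eif2ak4, Atf4, Asns, Igf1 and Igf2 after their values were seen. The members and lists were chosen with earlier results of these cells known, and the photoreceptor difference of Nnat was among those results, so its test is no independent support.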

Additional observations from a re-analysis of the deposited data

Results flagged for a closer look

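Within the groups of 4 to 10 values, a cell or stage was looked for that lay far from the rest. Of 28 groups of values, 8 held such a value (2 in P0 ganglion cells, 3 in P0 amacrine cells and 3 over the stage means of ganglion cells). The usual rate of about 1 in 20 by chance does not apply, because low values were set to a floor, and a group with a single value above the floor stands out by construction. Plagl1 in P0 ganglion cell C6, at 14.97, was the only one of 4 cells above the floor. Peg3 in P0 amacrine cell B1, at 12.42, was the only one of 5 cells above the floor. The mean of Ndn at E15.5, 10.76, lay below those of the other 4 ganglion stages, with the E15.5 cells at 9.14, 15.48 and 7.64. Sgce had its highest stage mean, 9.49, at E14.5, where 1 of the 2 cells reached the detection level. The other 4 lay under the detection level: Sgce at 8.28 in P0 ganglion cell A6 and 9.16 in P0 amacrine cell B1, and Dlk1 at 7.79 in P0 amacrine cell G3 and 7.92 at E13.5.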

How the results depend on the processing

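The values were recomputed with floors of 100 and 400, quantile normalization, the mean over probe sets, detection at 500 or 2000, no filter on dim genes, the median over cells, other spread models, each cell left out in turn and the adult rod and amacrine cell J6 left out together. Leaving out the E14.5 ganglion cells, and P0 against all embryonic ganglion cells, were chosen after seeing the data. Nnat passed as lower in photoreceptors under each alternative, at limma adjusted p of 4.85e-05 to 0.0415, and of 3.46e-06 to 0.0444 with 1 cell left out, and no other member that was tested there passed in either test. All genes passing numbered 27 to 179 for photoreceptors and 0 to 31 for ganglion against amacrine cells, and 45 to 161 and 1 to 9 with 1 cell left out. The difference of Mest in photoreceptors turned to -0.33 with a floor of 400, -0.78 with quantile normalization and -0.50 without the rod and J6, where that of Plagl1 turned to 0.076. Ndn in ganglion against amacrine cells turned to -0.14 with medians. With 1 cell left out, Mest ran between -0.69 and 0.72, Peg3 between -1.37 and 0.11 in photoreceptors, and Ndn between -0.32 and 1.35 in ganglion against amacrine cells. None of these differences passed the test. With the mean over probe sets a cell detected a median of 3 members, and Grb10, Peg3 and Impact, each with 2 or 3 undetected probe sets, left the tested genes, so P0 against all embryonic ganglion cells had 0 members without overlap. Leaving out the rod or J6 leaves 1 sample in its group, whose spread is taken from the others. No paired analysis was possible because the cell names that recur (A3, B1, E1 and F6) do so only between different stages, and the test used averages over cells.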

Other observations

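Among imprinted genes outside the members and their neighbours, the 6 detected in most cells were Gnas (21 cells), Inpp5f (18), Nap1l4 (16), Dhcr7 (14), Zdbf2 (9) and Trappc9 (9). Gnas, the stimulatory G protein alpha subunit, was detected in 2 of 3 photoreceptors, 13 of 13 ganglion cells and 6 of 6 amacrine cells. Its difference between photoreceptors and the other neurons was -3.62 and did not pass (limma adjusted p = 0.0849). Inpp5f, an inositol phosphatase, was detected in 0 of 3 photoreceptors, 13 of 13 ganglion cells and 5 of 6 amacrine cells, with a difference of -4.59 that did not pass (limma adjusted p = 0.0603). Zdbf2, a zinc finger gene, was detected in 1 photoreceptor, 7 ganglion cells and 1 amacrine cell. Trappc9, a subunit of a vesicle tethering complex, was detected in 2 photoreceptors, 3 ganglion cells and 4 amacrine cells. Nap1l4, a relative of Nap1l5, was detected in 2 photoreceptors, 10 ganglion cells and 4 amacrine cells. In ganglion cells it was detected in 2 of 4 at P0 and 8 of 9 before birth, and Nap1l5 in 4 of 4 at P0 and 2 of 9 before birth.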
